A study of Homo sapiens with 6 samples.

Results

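Fibrinogen is the soluble plasma protein that thrombin turns into fibrin, the mesh of a blood clot. It is a hexamer of paired Aα, Bβ and γ chains, encoded by FGA, FGB and FGG, which lie side by side in the genome, and hepatocytes assemble the chains in the endoplasmic reticulum before secretion. In liver cells FGA and FGB are known to need C/EBP factors, and interleukin 6 raises all 3 genes through STAT3 as part of the acute-phase response. The 3 chain genes were the rows with these symbols, 3 of 16721 rows in a table of RNA-seq read counts, and all 3 were among the 12839 genes that passed the filter on low counts. They were selected on their CPM difference between the groups of this study, so their values in this comparison are a description and carry no test.

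The libraries came from Hep3B cells, a human hepatocellular carcinoma line, which the study used to ask what RFX6 does in these cells. RFX6 is a transcription factor of the RFX family, whose members bind X-box DNA elements. There were 3 libraries labelled sgControl with the genotype WT, made with a control guide RNA, and 3 labelled sgRFX6, in which RFX6 had been knocked out by a guide RNA with Cas9. By the study's methods, guides were delivered by lentivirus with puromycin selection and clones derived from single cells were expanded. The labels do not say whether the libraries of a group share a clone, so the spread between them may be technical, and a clone's own differences and the knockout cannot be told apart.

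The libraries held between 16730386 and 25070793 counts. As CPM, the counts scaled to a common library size, RFX6 itself measured 5.64, 5.83 and 7.34 in sgControl against 3.43, 3.71 and 3.50 in sgRFX6. The groups were apart and the log2 fold change was -0.82 (standard error, SE, 0.26), but the gene did not pass the threshold (edgeR adjusted p = 0.142, range over the alternatives 0.00274 to 0.505). A two-sided exact permutation test gave p = 0.1, the smallest that 3 against 3 libraries allow. An edit that leaves the transcript in place would still be counted, so the RFX6 count is a weak check of the labels. Across all tested genes, 480 passed the threshold of an adjusted p of 0.05, which is 3.74%, with 247 higher and 233 lower in sgRFX6, and the median log2 fold change was 0.02. All 12 hepatocyte markers listed passed the filter, and albumin (ALB) counts were 325, 793 and 298 in sgControl against 434, 293 and 576 in sgRFX6. Passing the filter does not mean a high level. In sgControl, TTR had 7, 21 and 6 counts and AFP had 48, 39 and 51.

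By the GENCODE 29 annotation of GRCh38, the locus spans chr4:154562956-154612967, a stretch of 50012 bases. FGB (chr4:154562956-154571086) lies on the plus strand, and FGA (chr4:154583126-154590766) and FGG (chr4:154604134-154612967) lie on the minus strand. The gap between FGB and FGA is 12039 bases and the gap between FGA and FGG is 13367 bases. The count table had 1 row per chain, so the spliced forms that give the longer Aα chain or the γ′ chain were not separated.

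The promoters are shown because the 3 genes are classic targets of liver and acute-phase factors and all 3 were lower in the same libraries. The sequences are from RefSeq on GRCh38.p14, where 3 of 3 chains had an entry, written 5′ to 3′ on each gene's own strand. Capitals mark the searched motifs. The FGA stretch covers positions -250 to -26 from the start site at chr4:154590768-154590992, the FGB stretch covers -250 to -26 at chr4:154562730-154562954, and the FGG stretch is limited to positions -173 to -144 at chr4:154612800-154612829, around its 1 motif. GENCODE places the start of FGG-203, the transcript used below for levels per kilobase, further upstream, so the printed FGG stretch lies upstream of the RefSeq start but inside that annotated transcript.
FGA: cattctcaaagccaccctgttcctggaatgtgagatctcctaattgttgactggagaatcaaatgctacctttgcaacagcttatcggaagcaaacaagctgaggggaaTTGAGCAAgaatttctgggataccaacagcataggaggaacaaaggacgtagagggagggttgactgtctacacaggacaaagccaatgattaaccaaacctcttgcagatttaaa
FGB: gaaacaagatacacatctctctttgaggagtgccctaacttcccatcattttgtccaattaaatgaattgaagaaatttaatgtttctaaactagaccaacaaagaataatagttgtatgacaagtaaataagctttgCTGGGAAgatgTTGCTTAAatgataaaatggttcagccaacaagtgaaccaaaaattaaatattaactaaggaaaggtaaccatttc
FGG: tgtgtgcaaaatCTGGGAAcctgacagtat

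The 250 bases before each start site were searched on both strands. CTGGGAA, the core of the interleukin 6 response element, was found in FGB at -112 to -106 and in FGG at -161 to -155, but not in FGA, and 9.15% of 35116 RefSeq windows of the same length held it. TTGCNNAA, a C/EBP motif, was found on the opposite strand in FGA at -141 to -134 and on the same strand in FGB at -101 to -94, but not in FGG, and 9.05% of the windows held it. GTTGCC, a spelling of an arm of the X-box bound by RFX factors, had no match in the 3 windows, against a match in 10.2% of all windows. Only these exact letters were searched for the X-box. Arms with other letters were not searched, so their absence from the 3 windows is not shown. The matches do not overlap one another. They describe letters in these windows and are not evidence of binding.

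All 3 chain transcripts were lower in every sgRFX6 library than in any sgControl library, and FGB had the largest difference. FGB, the Bβ chain, had 464, 850 and 522 counts in the sgControl libraries and 93, 54 and 142 in the sgRFX6 libraries. Scaled to library size, this was 22.4, 34.4 and 22.5 CPM against 4.62, 3.39 and 6.45 CPM. The lowest sgControl library thus lay well above the highest sgRFX6 library. This gave a mean of 26.4 ± 6.92 CPM (SD, n = 3) for sgControl against 4.82 ± 1.54 CPM (SD, n = 3) for sgRFX6, which is 5.48-fold lower, and the fitted log2 fold change was -2.45 (SE 0.32).

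FGA, the Aα chain from which thrombin releases fibrinopeptide A, had 325, 560 and 303 counts in sgControl against 114, 75 and 111 in sgRFX6. These were 15.7, 22.7 and 13.1 CPM against 5.66, 4.71 and 5.04 CPM. The sgRFX6 libraries lay close together, while sgControl replicate 2 was above the other controls. This gave a mean of 17.1 ± 4.97 CPM (SD, n = 3) for sgControl against 5.14 ± 0.482 CPM (SD, n = 3) for sgRFX6, a 3.34-fold difference, with a log2 fold change of -1.74 (SE 0.28).

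FGG, the γ chain that carries platelet-binding and cross-linking sites, was the least abundant. It had 55, 181 and 42 counts in sgControl against 28, 23 and 23 in sgRFX6, or 2.65, 7.33 and 1.81 CPM against 1.39, 1.45 and 1.04 CPM. The groups were apart by a small margin, between 1.81 CPM in the lowest sgControl library and 1.45 CPM in the highest sgRFX6 library. Within sgControl alone FGG varied 4.04-fold. This gave a mean of 3.93 ± 2.97 CPM (SD, n = 3) for sgControl against 1.29 ± 0.217 CPM (SD, n = 3) for sgRFX6, a 3.04-fold difference, with a log2 fold change of -1.61 (SE 0.53).

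**Figure D1:**
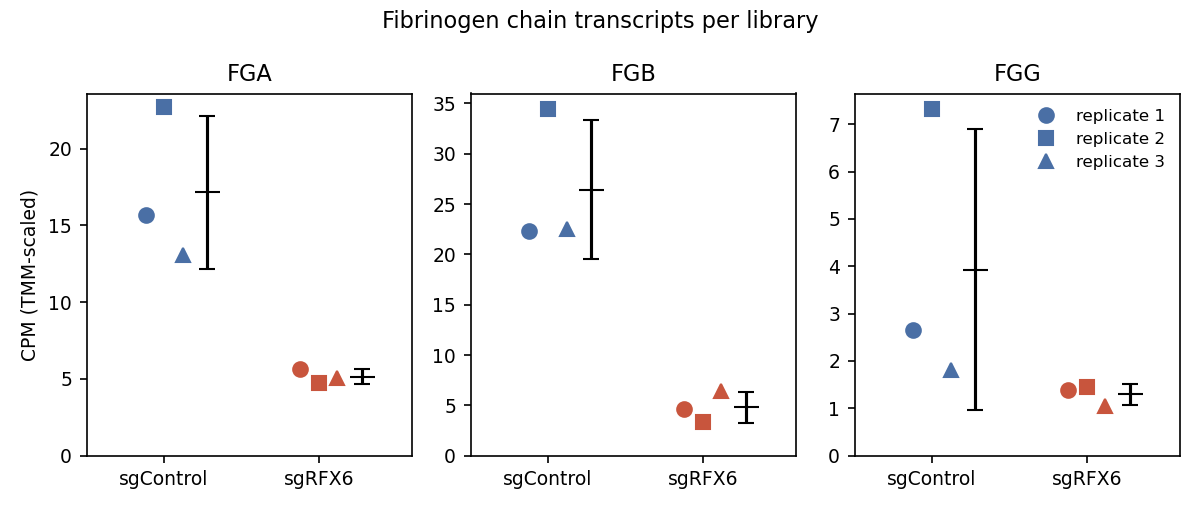
CPM of FGA, FGB and FGG in each library, with a separate vertical axis from 0 for each gene; marker shapes give the replicate number, and the black bar beside each group is the mean with the SD over 3 libraries. Every sgRFX6 point is below every sgControl point of its gene, and sgControl replicate 2 is the highest in each panel, most of all for FGG at 7.33 CPM.

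The selection fixed these directions, so the following counts are read no further. FGA and FGB but not FGG passed the threshold for a lower level, 2 of 3 chains, where 1.81% of all tested genes did. The groups did not overlap for 3 of 3 chains, where 11.2% of all tested genes were lower without overlap. In the order of fitted log2 fold changes from the lowest of the 12839 genes, FGB stood at rank 119, FGA at 218 and FGG at 245.

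The size of the FGG difference rested on sgControl replicate 2. That library lay above its group mean on the log2 CPM scale for all 3 chains, by 0.44 for FGA, 0.41 for FGB and 1.13 for FGG. Without it the log2 fold change was -0.79 (SE 0.34) for FGG, -1.48 (SE 0.23) for FGA and -2.21 (SE 0.30) for FGB, so that all 3 kept their direction. The same library was also the highest sgControl library in the summed CPM of the acute-phase list described below, with 52.0 CPM against 28.6 and 28.7, and in ALB, with 32.1 CPM against 15.7 and 12.9. What sets this library apart was not tested. Among the sgRFX6 libraries, FGB spread most, from 0.45 below the group mean in replicate 2 to 0.46 above it in replicate 3, and FGA and FGG did not follow it, with deviations between -0.27 and 0.16.

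**Figure D2:**
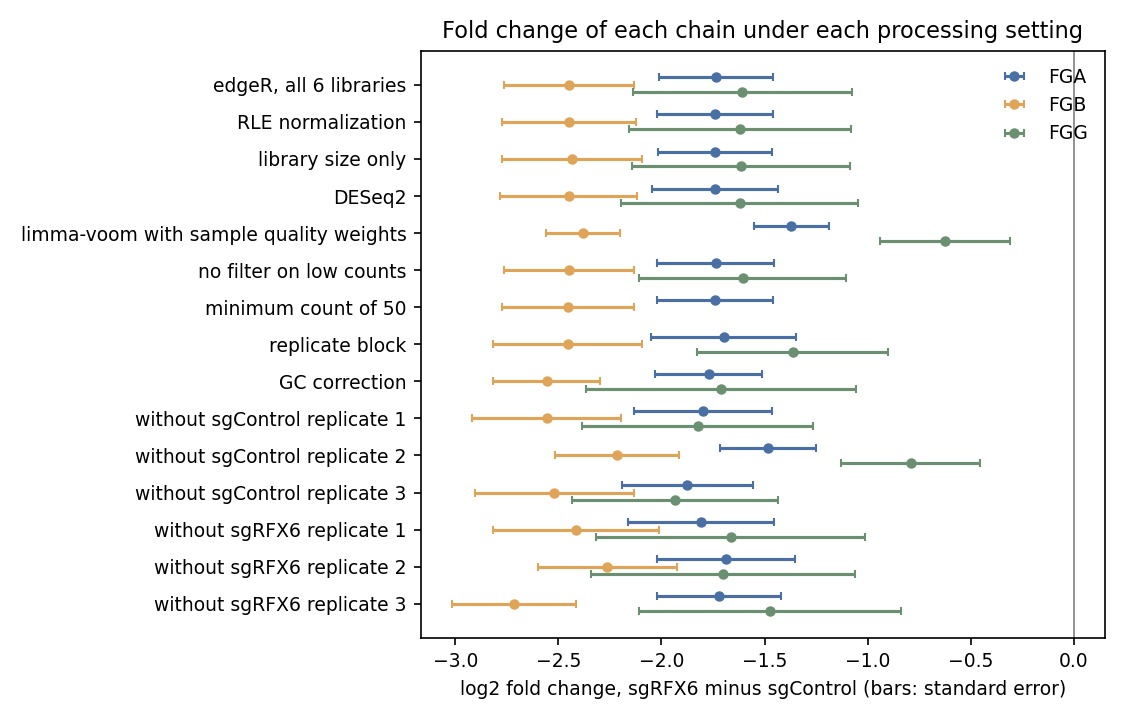
Fitted log2 fold change of each chain (horizontal axis, sgRFX6 minus sgControl, bars are standard errors) under the edgeR fit to all 6 libraries and 14 alternative settings. All values are below 0; FGB lies between -2.71 and -2.21, and FGG moves closest to 0 with sample quality weights, at -0.62, and without sgControl replicate 2, at -0.79; FGG was not tested with a minimum count of 50.

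The chains were also compared with each other, as CPM per kilobase of the best supported coding transcript in GENCODE 29, 2248 bases for FGA, 1975 for FGB and 1760 for FGG. Summed over the chains, fibrinogen transcripts measured 19.8, 31.7 and 18.3 CPM per kilobase in sgControl and 5.65, 4.64 and 6.10 in sgRFX6. The mean was 23.2 ± 7.35 in sgControl and 5.46 ± 0.750 in sgRFX6 (SD, n = 3 each), a 4.26-fold difference.

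FGB made up most of this sum in the control cells and less in the sgRFX6 cells. Its share per kilobase was 57.2%, 55.0% and 62.5% in the sgControl libraries and 41.4%, 37.1% and 53.5% in the sgRFX6 libraries. FGA took 35.2%, 31.8% and 31.9% in sgControl and 44.6%, 45.2% and 36.8% in sgRFX6. Neither share overlapped between the groups, with means of 58.2% ± 3.85 and 44.0% ± 8.53 for FGB and of 33.0% ± 1.93 and 42.2% ± 4.72 for FGA (SD, n = 3 each). The margins were small, 55.0% against 53.5% for FGB and 35.2% against 36.8% for FGA. The shares of a library add up to the whole, so the FGA and FGB differences are not separate results. The balance of the chains was part of their selection, so it too is a description without a test. FGG was the smallest share in every library, with 7.61%, 13.1% and 5.64% in sgControl and 13.99%, 17.7% and 9.73% in sgRFX6, and its groups overlapped.

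In pairs, the log2 ratio of FGA to FGB per kilobase was -0.70, -0.79 and -0.97 in sgControl and 0.11, 0.29 and -0.54 in sgRFX6. FGB therefore exceeded FGA in all controls, and the ratio lay above 0 in sgRFX6 replicates 1 and 2 but not in replicate 3. The mean ratio differed by 0.77 between the groups, and leaving out each library in turn gave 0.60 to 1.02. Counting error alone gave each library's ratio an SE between 0.08 and 0.26 on the log2 scale. The ratios of 0.11 and 0.29 in sgRFX6 replicates 1 and 2 were close to their counting SEs of 0.20 and 0.26, so the order of FGA and FGB there is not resolved at this depth.

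The ratios that involve FGG overlapped between the groups. The log2 ratio of FGB to FGG was 2.91, 2.07 and 3.47 in sgControl and 1.57, 1.06 and 2.46 in sgRFX6, a difference in means of -1.12. For FGA to FGG it was 2.21, 1.28 and 2.50 in sgControl and 1.67, 1.35 and 1.92 in sgRFX6, a difference of -0.35. A difference between the groups in the ratio of FGA to FGG was thus not detectable given the spread between these libraries, a pooled SD of 0.49. The shares depend on the transcript chosen, and with the longest FGA transcript, 3678 bases, FGA took 23.1% ± 1.56 in sgControl and 30.9% ± 4.08 in sgRFX6, again without overlap. With that length FGB exceeded FGA in every library, sgRFX6 replicates 1 and 2 included, so their order there also depends on the transcript.

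**Figure D3:**
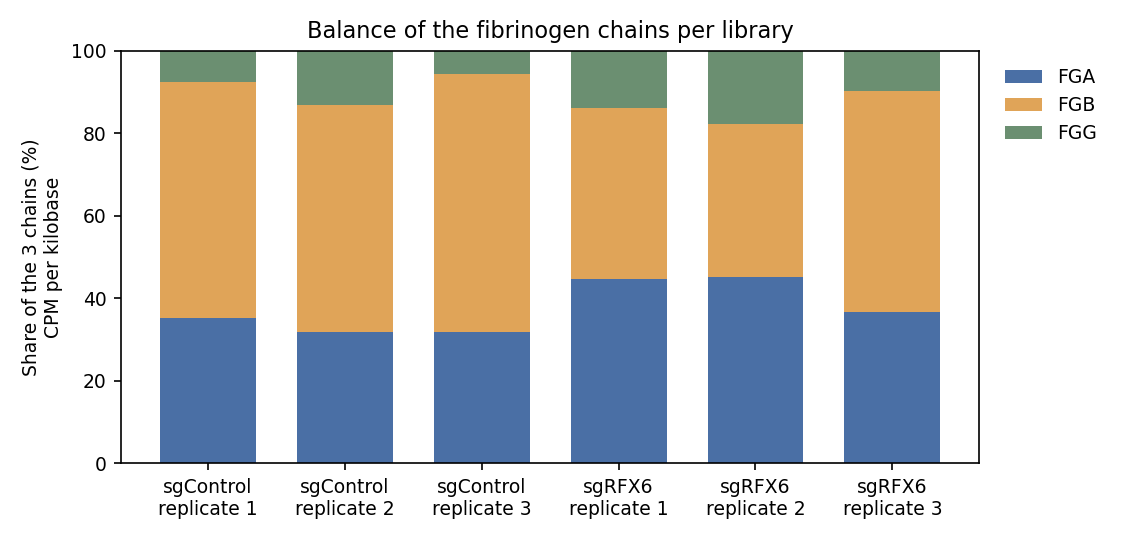
Share of FGA, FGB and FGG in the sum of the 3 chains, from CPM per kilobase, for each library (bars stacked to 100%). The FGB segment is 55.0% to 62.5% of the bar in sgControl and 37.1% to 53.5% in sgRFX6.

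The profile of each chain over the 6 libraries was set against every other tested gene, as the root mean square distance of log2 CPM centred on each gene's mean. Of 12838 genes, FGB was the 288th closest to FGA and FGG the 224th closest. FGA was the 64th closest gene to FGB, while FGG was the 353rd. Seen from FGG, FGA ranked 153rd and FGB 2849th. FGB and FGG were the least alike pair, at a distance of 0.80. The group difference on which the chains were selected enters these distances, so the ranks are a description.

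The 5 genes most like the mean profile of the chains, among the 11435 genes that averaged 1 or more in log2 CPM, were TP53INP1, DRAM1, SLC47A1, MEX3A and SEMA6C, at distances of 0.119 to 0.214. TP53INP1, a p53-induced gene linked to autophagy, had 56.6, 94.5 and 44.7 CPM in sgControl and 19.1, 13.1 and 17.0 CPM in sgRFX6. Like the chains, it was highest in sgControl replicate 2 and did not overlap between the groups. DRAM1 is another p53-induced autophagy gene, SLC47A1 encodes an organic cation exporter, MEX3A an RNA-binding protein and SEMA6C a semaphorin. The group difference enters this distance too, so the lower level of these genes in sgRFX6 follows from how they were chosen.

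The genes around the locus did not share one direction. PLRG1, a splicing factor gene 12521 bases from the locus and its nearest tested neighbour, had 67.2, 59.0 and 60.2 CPM in sgControl and 56.1, 45.5 and 66.5 CPM in sgRFX6, which overlapped, with a log2 fold change of -0.15 (SE 0.19). DCHS2, a cadherin gene 67386 bases away, had 0.482, 1.30 and 0.345 CPM in sgControl and 2.19, 1.32 and 3.77 CPM in sgRFX6. Its groups were apart with the higher values in sgRFX6, opposite to the chains, but it did not pass the threshold (log2 fold change 1.77, edgeR adjusted p = 0.159, range over the alternatives 0.000633 to 0.415).

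Of the 9 tested neighbours within 2000000 bases, 2 fell, or 22.2%, against 1.81% of all tested genes. TDO2, which encodes the liver enzyme tryptophan 2,3-dioxygenase and lies 1241771 bases away, had 259, 475 and 230 counts in sgControl against 36, 23 and 68 in sgRFX6. It fell by 2.71 on the log2 scale (SE 0.39, edgeR adjusted p = 0.00689) and passed the threshold in all 14 alternatives. TMEM154, a membrane protein gene 1882791 bases away, had 40, 20 and 56 counts in sgControl against 7, 2 and 8 in sgRFX6. It fell by 2.55 (SE 0.56, edgeR adjusted p = 0.0427), but the call was lost without scaling factors (adjusted p = 0.0552), and with 1 library left out it held only without sgControl replicate 2, and the adjusted p reached 0.167 without sgControl replicate 3.

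The other 5 neighbours, ARFIP1, TRIM2, MND1, KIAA0922 and CTSO, had log2 fold changes between -0.57 and 0.35 and did not pass. ARFIP1, TRIM2 and MND1 were each highest in sgRFX6 replicate 3, and without it ARFIP1 and TRIM2 were below 0, at -0.15 and -0.41. LRAT, 13978 bases from the locus, had at most 4 counts in a library and was not tested. The 50 tested genes nearest to the locus had a median log2 fold change of -0.04, against 0.02 for all genes. Of the 50, 2 were called, TDO2 and TMEM154, both lower, which is 4%. Over all tested genes, 3.74% were called in either direction and 1.81% were called lower.

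**Figure D4:**
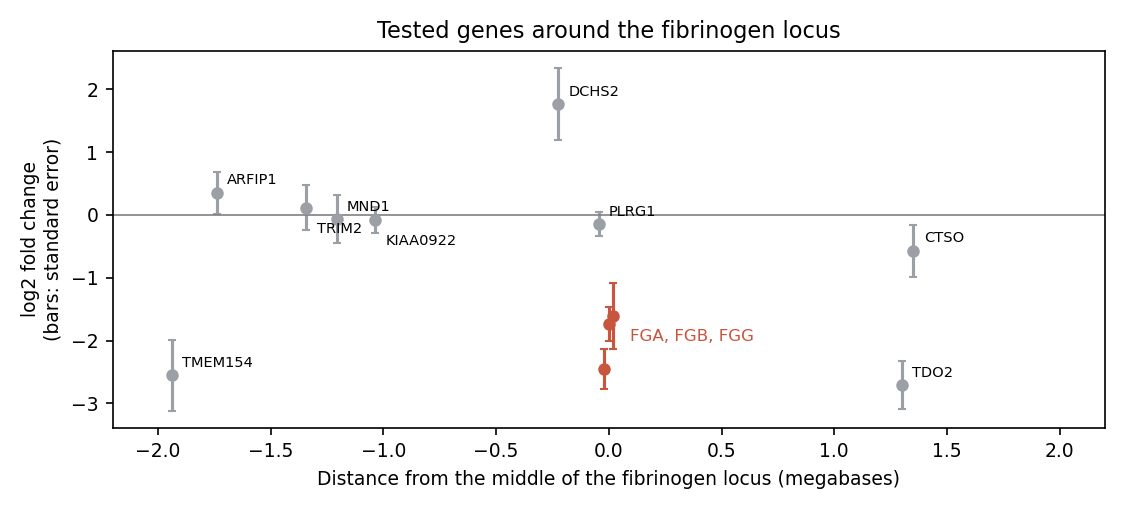
Log2 fold change with its standard error (vertical axis, sgRFX6 minus sgControl) of the 3 chains, in red, and the 9 tested genes within 2000000 bases, in grey, by the distance of each gene's middle from the middle of the locus (horizontal axis, in megabases). PLRG1 sits beside the chains at -0.15 and DCHS2 at 1.77, while TDO2 and TMEM154 lie at -2.71 and -2.55 towards the right and left ends.

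Other genes of the fibrinogen pathway were taken from 7 lists ordered by role, with 121 genes, of which 83 were tested. Of the 83, 6 rose and 3 fell, or 10.8%, against 3.74% of all tested genes, and their median log2 fold change was -0.04. The count was between 4 and 28 over the alternatives, 4 without sgRFX6 replicate 1, 5 without sgControl replicate 3 and 5 with a minimum count of 50. The 28 came from limma-voom with sample quality weights, which called 3998 of all 12839 tested genes.

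Of 23 tested genes of transcription and cytokine signalling, 2 rose and the other 21 did not pass, and the median was -0.09. CEBPA, a C/EBP factor of hepatocytes, had 145, 208 and 170 CPM in sgControl against 209, 296 and 157 CPM in sgRFX6, overlapping groups with a log2 fold change of 0.34. CEBPB (0.10), STAT3 (0.14) and the interleukin 6 receptor gene IL6R (0.23) also overlapped. HNF4A, a liver nuclear receptor, was lower without overlap, with a log2 fold change of -0.27, but did not pass (edgeR adjusted p = 0.494, range 0.149 to 0.771). FOXA1 (-1.08, edgeR adjusted p = 0.0622) and FOXA3 (-0.86, edgeR adjusted p = 0.182) were also lower without overlap and did not pass. In all, 3 of the 23 were lower without overlap, where 11.2% of all tested genes were.

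IL6ST, the signalling subunit of the interleukin 6 receptor, had 72.0, 35.6 and 40.0 CPM in sgControl and 29.6, 25.2 and 128 CPM in sgRFX6. Its log2 fold change of 0.31 rested on sgRFX6 replicate 3 and was -0.84 without it. SOCS3, which is induced by STAT3 and inhibits the receptor, had 18, 43 and 44 counts in sgControl against 135, 125 and 117 in sgRFX6. It rose by 2.13 on the log2 scale (SE 0.36, edgeR adjusted p = 0.0141), and the adjusted p was 0.0588 without sgRFX6 replicate 1. NR1H4, the bile acid receptor FXR, which is known to induce fibrinogen genes in human hepatocytes, had 4, 5 and 3 counts in sgControl against 22, 12 and 22 in sgRFX6. It rose by 2.41 (SE 0.44, edgeR adjusted p = 0.0203), with adjusted p of 0.0753, 0.105 and 0.0937 without sgControl replicate 1, sgControl replicate 3 and sgRFX6 replicate 1.

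Among the 22 genes of chain assembly, folding and modification, 1 rose and 1 fell, and the median was 0.03. FAM20C, the Golgi kinase that phosphorylates secreted proteins, had 74, 106 and 70 counts in sgControl against 294, 219 and 243 in sgRFX6 and rose by 1.85 (SE 0.26, edgeR adjusted p = 0.00637). ERO1B, an oxidase that supports disulphide bond formation, had 38, 41 and 37 counts against 2, 1 and 7. It fell by 3.29 (SE 0.53, edgeR adjusted p = 0.0114), and the adjusted p was 0.065 without sgRFX6 replicate 1, while the log2 fold change was -4.26 without sgRFX6 replicate 3.

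Of the 8 tested genes that form and cross-link fibrin, 0 passed in edgeR and 0 in DESeq2, and the median was -0.10. At an unadjusted p under 0.05 there was 1, the gene of coagulation factor V, F5, and limma-voom with sample quality weights called 3, F5, TGM2 and TFPI. Of all 12839 tested genes, 2000 had an unadjusted edgeR p under 0.05 and limma-voom with these weights called 3998. F2, which encodes prothrombin, had 6.75, 12.9 and 7.64 CPM in sgControl and 8.89, 9.74 and 7.27 CPM in sgRFX6, with a log2 fold change of -0.08 that was 0.26 without sgControl replicate 2. F13B, the carrier subunit of factor XIII, had at most 2 counts in a library. F13A1 was not analysed here.

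In fibrin lysis, 1 of 9 tested genes fell and the other 8 did not pass, and the median was 0.09. PLAT, the tissue plasminogen activator, had 172, 479 and 213 counts in sgControl against 10, 16 and 12 in sgRFX6. It fell by 4.19 (SE 0.47, edgeR adjusted p = 0.0026) and passed in all 14 alternatives. PLG, the plasminogen it cleaves, was near the filter at 8 to 21 counts, with a log2 fold change of -0.17.

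Of 7 tested genes for fibrinogen receptors, 1 rose, with a median of -0.10. It was ITGAM, the leukocyte integrin αM chain, with 58, 91 and 63 counts in sgControl against 145, 142 and 133 in sgRFX6 (log2 fold change 1.26, SE 0.28, edgeR adjusted p = 0.0449). With 1 library left out it passed only without sgRFX6 replicate 3, and the adjusted p reached 0.203 without sgControl replicate 3. The leukocyte marker PTPRC had 13, 21 and 9 counts in sgControl against 10, 4 and 22 in sgRFX6, which overlapped.

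Of 6 tested genes whose proteins share the fibrinogen domain, 1 rose and 1 fell, with a median of -0.86. FGL1, a fibrinogen-like protein secreted by hepatocytes, had 5.98, 6.03 and 5.53 CPM in sgControl and 17.2, 16.6 and 26.6 CPM in sgRFX6. It rose by 1.78 (SE 0.26, edgeR adjusted p = 0.00805), the opposite direction to the chains, and the adjusted p was 0.061 without sgControl replicate 3. ANGPTL2, an angiopoietin-like secreted protein, had 135, 171 and 138 CPM against 57.8, 52.4 and 41.7 CPM, fell by 1.55 (SE 0.19, edgeR adjusted p = 0.00348) and passed in all 14 alternatives.

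Among the other acute-phase genes, 1 of 8 tested rose and the other 7 did not pass. Their median log2 fold change was 0.35, and their summed CPM, the chains left out, was 28.6, 52.0 and 28.7 in sgControl and 44.4, 43.4 and 55.7 in sgRFX6, which overlapped. The riser was A2M, a broad protease inhibitor, with 3, 13 and 9 counts against 33, 36 and 49 (log2 fold change 2.49, SE 0.47, edgeR adjusted p = 0.0214). Its adjusted p was between 0.0312 and 0.0976 with 1 library left out and passed only without sgControl replicate 2 or sgRFX6 replicate 3. HP, which encodes haptoglobin, had at most 7 counts and was not tested, so a difference was not detectable at this depth, and CRP was not analysed here.

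**Figure D5:**
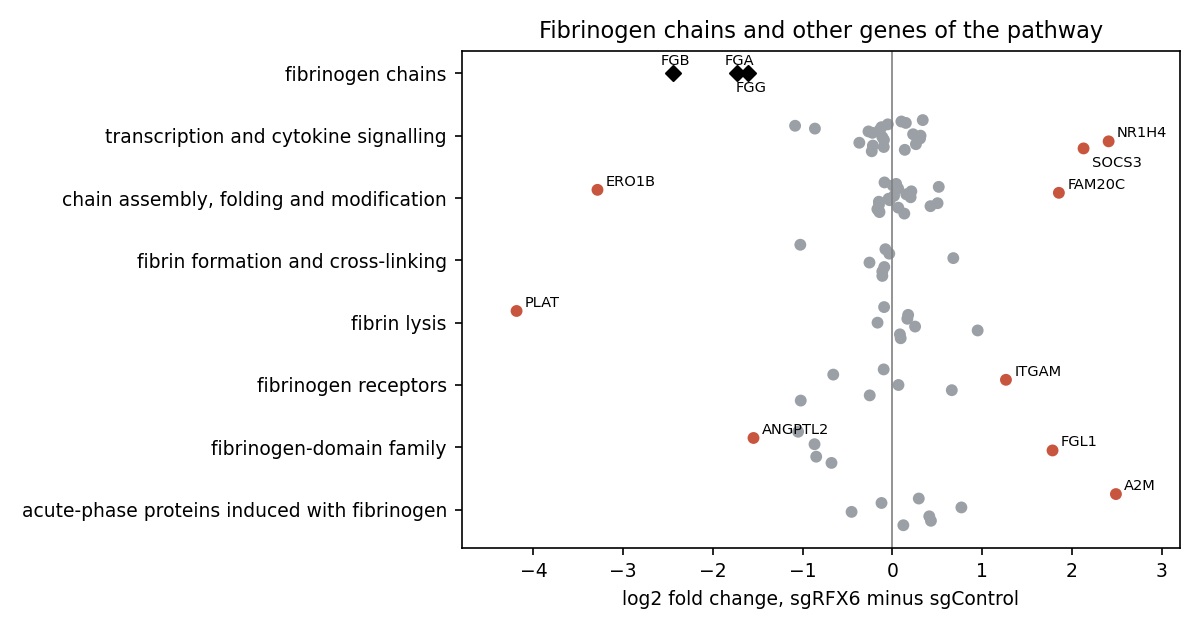
Log2 fold change (horizontal axis, sgRFX6 minus sgControl) of the 3 chains, as black diamonds, and of the 83 tested genes in the 7 pathway lists, with 1 point per gene, red where the edgeR adjusted p was under 0.05. The 9 red points lie on both sides of 0, from PLAT at -4.19 to A2M at 2.49, and most grey points lie near 0.

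Markers of hepatocytes also moved in both directions. Of 12 tested, 2 rose and 1 fell, or 25%, against 3.74% of all tested genes. AFP, the fetal liver protein, rose by 2.82 on the log2 scale (SE 0.32, edgeR adjusted p = 0.00254), AHSG rose by 1.68 (SE 0.27, edgeR adjusted p = 0.0119) and RBP4, which carries retinol, fell by 1.24 (SE 0.24, edgeR adjusted p = 0.0247). With 1 library left out, the AHSG call was lost in 3 of 6 fits and the RBP4 call in 4 of 6. ALB, by contrast with the chains, overlapped between the groups, with a log2 fold change of 0.13 (SE 0.35). The summed CPM of the list was 230 to 256 in sgControl and 170 to 206 in sgRFX6. The sum does not describe most markers, as the median log2 fold change was 0.29, with 7 positive and 5 negative. APOB weighed most on it, with a mean of 66.6 CPM in sgControl and 27.1 CPM in sgRFX6, and did not pass (edgeR adjusted p = 0.116). In bulk RNA, fewer cells that express a gene and less RNA per cell cannot be told apart.

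Markers of other cell types were counted in the same way. Of 5 tested fibroblast markers 3 were lower, against 1.81% of all tested genes, COL1A1, COL1A2 and COL3A1, which encode fibrillar collagen chains, although the COL1A1 call was lost without sgControl replicate 3 or sgRFX6 replicate 1. COL3A1 had 478, 680 and 615 counts in sgControl against 2, 0 and 0 in sgRFX6, at least 163-fold lower against a floor of 3 counts per library. DCN (log2 fold change -0.44) and LUM (0.63) did not pass, LUM being highest in sgRFX6 replicate 3 with 1205 counts, and PDGFRB, with at most 15 counts, was not tested. The list's summed CPM was 51.0 to 60.6 in sgControl and 21.4 to 56.2 in sgRFX6, which overlapped.

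Of 1 endothelial, 4 cholangiocyte and 4 leukocyte markers tested, 0 passed in edgeR, KRT7 and LYZ had an unadjusted p under 0.05, DESeq2 called 1 cholangiocyte and 1 leukocyte marker, and limma-voom with sample quality weights called 1, 1 and 2. Of all 12839 tested genes, DESeq2 called 895 and limma-voom with these weights 3998, and 2000 had an unadjusted edgeR p under 0.05. KRT19, a keratin of biliary cells that many carcinoma lines express, was abundant at 407 to 956 CPM. The summed CPM ranged over 11.8 to 13.6 in sgControl and 13.4 to 19.7 in sgRFX6 for endothelial markers, over 606 to 976 and 416 to 758 for cholangiocyte markers, and over 73.8 to 159 and 64.8 to 103 for leukocyte markers. The endothelial marker KDR, the cholangiocyte marker CFTR and the T cell marker CD3E had at most 1 count in any library. The part of these markers in the difference of the chains was not tested.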

How the data were processed

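RNA was isolated with Trizol from Hep3B cells, 3 libraries per group, and sequenced by the authors on an Illumina platform. The authors deposited 1 table of raw read counts per gene, with GRCh38 (hg38) named as the build in the submitters' processing notes; aligner, counter and strand setting are not given in the sources used here. Columns named cas, which name no guide, were taken as sgControl, the only control group, and columns named sg3 as sgRFX6.

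Counts were filtered with filterByExpr (minimum count 10, minimum total 15), scaled by TMM and tested with edgeR 4.0.16 in R 4.3.3 by the quasi-likelihood test without covariates, with Benjamini-Hochberg adjustment over 12839 genes. The common biological coefficient of variation was 0.269. A row without a gene name, at most 9.17e-05% of a library, was left out. The test was tested on simulated counts with 200 genes changed. These were drawn only from genes above a minimum mean CPM, which FGG, NR1H4, ERO1B and A2M did not reach. The recovery rates therefore do not cover genes at such low levels. At 4-fold the test recovered 96.5% of the changed genes, and 9.39% of its 213 calls were false. At 2-fold it recovered 27.5%, and 3.51% of its 57 calls were false, so changes of this size were mostly missed. With none changed it made 0 calls. Counting errors and floors (3 counts) cover counting only.

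The members, lists and tests were chosen with earlier results of these data known. Named genes were the chains, RFX6, list genes past the threshold or with a needed role, tested genes within 2000000 bases, and the 5 genes closest to the chains over 6 libraries; Pearson r is not printed because the groups form separate clusters. Genes were placed by GENCODE 29, and 1042 of 16721 rows had no match. Alternatives were RLE or no scaling factors, DESeq2 1.42.0, limma 3.58.1 voom with sample weights, other count filters, a replicate block, a GC correction and leaving out each library. Some listed genes are counted in their list but not reported here.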

Additional observations from a re-analysis of the deposited data

How the results depend on the processing

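All 3 chains kept their direction in each alternative that tested them. FGA and FGB passed the threshold in every alternative and FGG in none. The log2 fold change ranged over leave-one-out fits from -1.87 to -1.48 for FGA and from -1.93 to -0.79 for FGG. With sample quality weights in limma-voom it was -1.37 for FGA and -0.62 for FGG. The 480 genes past the threshold became 895 with DESeq2, 3998 with limma-voom and sample quality weights and 1363 with the GC correction, and 212 (without sgControl replicate 3) to 718 with 1 library left out; it was 306 without sgControl replicate 1, 216 without sgRFX6 replicate 1 and 303 without sgRFX6 replicate 2. The 9 pathway genes became 28 of 83 with limma-voom, where 3998 of all 12839 genes passed. They became 14 with the GC correction, where 1363 of 12203 genes passed, and 5 with a minimum count of 50, where 354 genes passed. With 1 library left out they were 4 to 11. RFX6 passed with limma-voom (-0.96, adjusted p = 0.00274) and with the GC correction (-0.85, adjusted p = 0.0465). The cause of these shifts was not tested.

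Directions of some genes that did not pass reversed. With limma-voom IL6ST was -0.60, F2 0.23, ARFIP1 -0.0926 and TRIM2 -0.19, and with the GC correction IL6ST was -0.0388 and TRIM2 -0.0397. Leave-one-out ranges crossed 0 for CEBPB (-0.054 to 0.30), IL6ST (-0.84 to 0.69), F2 (-0.25 to 0.26), PLG (-0.53 to 0.0835), ARFIP1 (-0.15 to 0.55), TRIM2 (-0.41 to 0.35) and MND1 (-0.54 to 0.14). CEBPA (0.43), STAT3 (0.31), MND1 (-0.57) and DCHS2 (2.26) passed with limma-voom and sample quality weights alone.

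Replicate numbers did not pair the libraries: deviations of same-numbered libraries correlated at -0.41, 0.17 and -0.09. Some differently numbered libraries correlated more, sgControl 1 with sgRFX6 3 at 0.57, sgControl 2 with sgRFX6 1 at 0.44 and sgControl 3 with sgRFX6 2 at 0.28. The remaining combinations were negative, and what these libraries share was not tested. With the replicate number as a block, the log2 fold changes were -1.70 for FGA, -2.45 for FGB and -1.36 for FGG, the log2 ratio of FGB to FGG differed by -1.12 with an SD of 0.20 over the pairs, against a pooled SD of 0.71 within groups, 648 genes passed, 10 pathway genes passed, and IL6ST (-0.0646) and TRIM2 (-0.00926) reversed. At 23 to 181 counts, FGG is the chain for which depth limits precision most. Its sgControl libraries lay from -0.83 to 1.13 around their mean in log2 CPM. The counting SE of its log2 ratio to FGA there was 0.12 to 0.24, so the spread between those libraries was wider than counting error.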
